A study of Saccharomyces cerevisiae with 34 samples.

Results

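Baseline translational efficiency was described from the 5 library pairs of this yeast series that received neither dithiothreitol (DTT) nor tunicamycin (Tm). They were chosen by their labelled treatment and hold 10 of the 34 libraries, or 5 of 17 pairs. Each pair is 1 ribosome footprint library and 1 mRNA library of the same culture condition. The series measured mRNA and footprints of Saccharomyces cerevisiae, SK1 background, during stress of the endoplasmic reticulum (ER), with Hac1 present, deleted or depleted. All cells grew in rich medium with 2% glucose at 30 °C.

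The deletion experiment gave 2 of the pairs, untreated wild-type (WT) cells and untreated cells with hac1 deleted. The auxin experiment gave the other 3, all with 500 µM auxin and 4 µM IP6 and no DTT. They are cells without TIR at 1 h, cells with TIR at 1 h and cells with TIR at 2 h. TIR is a plant auxin receptor, used in yeast to have tagged proteins degraded when auxin is added. The design text calls these cells wild type or depleted for Hac1, and the labels do not describe the tag. The 12 remaining pairs, used below for comparison, are WT and hac1 deleted cells with 5 mM DTT or 2 µg/mL Tm, and cells with or without TIR given auxin or vehicle and then 5 mM DTT. The labels do not say that any of these libraries came from separate cultures.

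Ribosome profiling sequences the stretches of mRNA that translating ribosomes protect from nuclease. Set against the mRNA level of the same gene, footprints per unit of length give the translational efficiency (TE), a measure of how densely ribosomes occupy a message. In yeast the leader of a message, its secondary structure, upstream reading frames and the length and abundance of the message are known to shape this density. HAC1 and GCN4 are textbook cases of messages held back in unstressed cells, the first by its unspliced intron and the second by upstream reading frames.

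The authors deposited the values as RPKM, that is, reads divided by gene length and by library size. TE is the difference of log2(RPKM + 1) between footprints and mRNA within a pair, centred on the median gene of that pair, so 0 is the median gene and 1 is a ratio of 2 to it. Without this centring the median gene lies at -0.75, so the sign of a TE close to 0 depends on the centring. Because it is relative, TE says nothing of the total rate of protein synthesis. The difference was taken within a pair and therefore within 1 table, since the tables of the experiments were normalised separately. Of 6679 genes, 5409 reached a mean of 10 RPKM over the 10 libraries and were tested. A gene was called above or below the median gene when limma's test against a minimum log2 difference of 1 gave an adjusted p under 0.05.

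The targeted gene was examined first. HAC1 mRNA was 42.1 RPKM in the hac1 deleted library, against 2372.2 RPKM in the untreated WT library. HAC1 footprints were 54.4 RPKM in the hac1 deleted library, against 178.5 RPKM in WT. The mRNA libraries thus match their genotype, while the footprint libraries differ less. The HAC1 value of the deleted pair describes residual reads. Genes of the mating pathway set the untreated WT pair apart from the other 4 pairs. The 15 listed mating genes, which haploid cells transcribe and several of which are specific to a cells, summed to 4868.0 RPKM of footprints and 4303.4 RPKM of mRNA in WT. In the other 4 pairs the same sums were 100.2 to 200.6 RPKM of footprints and 287.9 to 419.0 RPKM of mRNA. The alpha-cell receptor gene STE3 stayed between 0.6 and 2.5 RPKM of mRNA in all 5, and the labels give no mating type. The part of this difference in the results below was not tested, but leaving out the WT pair gave 613 genes above and 542 below the median gene, of which 572 and 529 were also called with all 5 pairs.

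A broad spread of TE was shared by the 5 pairs. TE was called above the median gene for 591 of 5409 genes (10.9%) and below it for 557 (10.3%), and 1333 genes reached an unadjusted p under 0.05. Of those called above, 564 had a TE over 1 in every pair, and of those called below, 529 had a TE under -1 in every pair. The gene at the 95th percentile carried 13.0 times the footprints per mRNA of the gene at the 5th percentile. Mean TE ran between -7.81 and 4.16, while the SD of a gene over the 5 pairs had a median of 0.167. For 4959 genes (91.7%) the highest and lowest pair lay within 1 log2 unit. Most of the spread between genes was therefore larger than the spread between pairs.

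**Figure D1:**
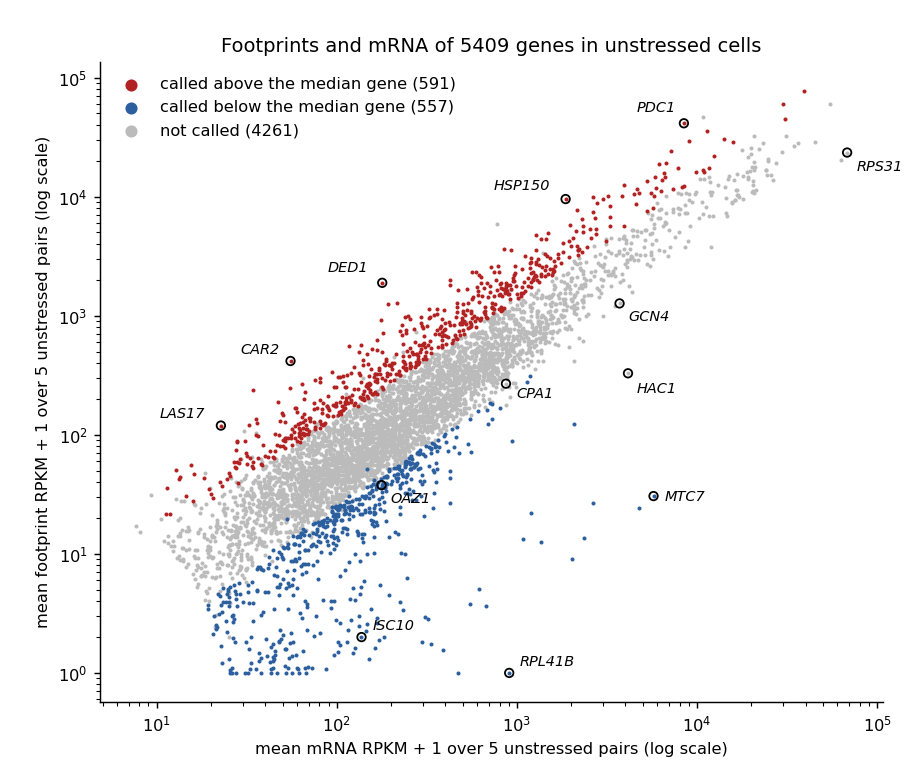
Mean footprint RPKM + 1 (vertical, log scale) against mean mRNA RPKM + 1 (horizontal, log scale) for the 5409 genes tested, each a mean over 5 unstressed pairs. Red points are the 591 genes called above the median gene, blue points the 557 called below and grey points the rest; DED1 lies above the cloud at 1888 footprint against 177.6 mRNA RPKM, and HAC1 below it at 327.4 against 4132 RPKM.

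DED1, which encodes a DEAD-box RNA helicase of translation initiation, had the highest mean TE of all genes tested. Its footprints were 2014.0, 1869.5, 2088.5, 1763.0 and 1706.3 RPKM, in the order WT, hac1 deleted, no TIR with auxin, TIR with auxin at 1 h and TIR with auxin at 2 h. Its mRNA was 217.7, 190.0, 175.0, 144.9 and 160.4 RPKM in the same order. Every footprint value was above every mRNA value, and TE averaged 4.16 ± 0.24 (SD, n = 5), which is 17.8 times the median gene (limma adjusted p = 3.17e-07). PAB1, the poly(A)-binding protein, reached 2.85 ± 0.11 from 3605 RPKM of footprints and 841.0 RPKM of mRNA.

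CAR2, the ornithine transaminase of arginine breakdown, followed DED1 with a TE of 3.66 ± 0.41 (SD, n = 5). Its footprints were 238.1, 172.7, 592.4, 565.4 and 508.9 RPKM in the order above, and its mRNA was 40.7, 18.8, 57.3, 67.9 and 86.8 RPKM. Both molecules were higher in the auxin pairs than in the deletion pairs, and the ratio was high in all 5. TVS1 averaged 3.53 ± 0.18 and SRO9, an RNA-binding protein of the La-related family, 3.45 ± 0.09. SRO9 was the steadier of the pair, with footprints of 1136.1 to 1361.1 RPKM and mRNA of 182.8 to 198.2 RPKM.

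The other genes with the highest TE encode proteins of varied function. LAS17, the yeast homologue of WASP that promotes actin assembly, averaged 3.13 ± 0.19 from a low mRNA level of 21.7 RPKM. SEC31, a subunit of the COPII coat, averaged 3.00 ± 0.07 and was among the steadiest. SCH9, a kinase downstream of TORC1, averaged 2.92 ± 0.12. ARO1, the enzyme of 5 steps of aromatic amino acid synthesis, averaged 2.93 ± 0.19 and was lowest in the hac1 deleted pair at 2.60. FLO11, a mucin-like adhesin of the cell surface, averaged 2.97 ± 0.41. Its mRNA was 17.7 RPKM in the hac1 deleted library and 129.5 to 261.1 RPKM in the other 4, and its TE was 2.24 in that pair and 3.04 to 3.23 in the others. Among the next ranks, named here after their values were seen, were PUB1 (2.84) and SCP160 (2.77), which bind RNA. The clathrin heavy chain gene CHC1 (2.80) stood beside them, as did the actin patch genes ABP1 (2.74), VRP1 (2.72) and PAN1 (2.66).

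**Figure D2:**
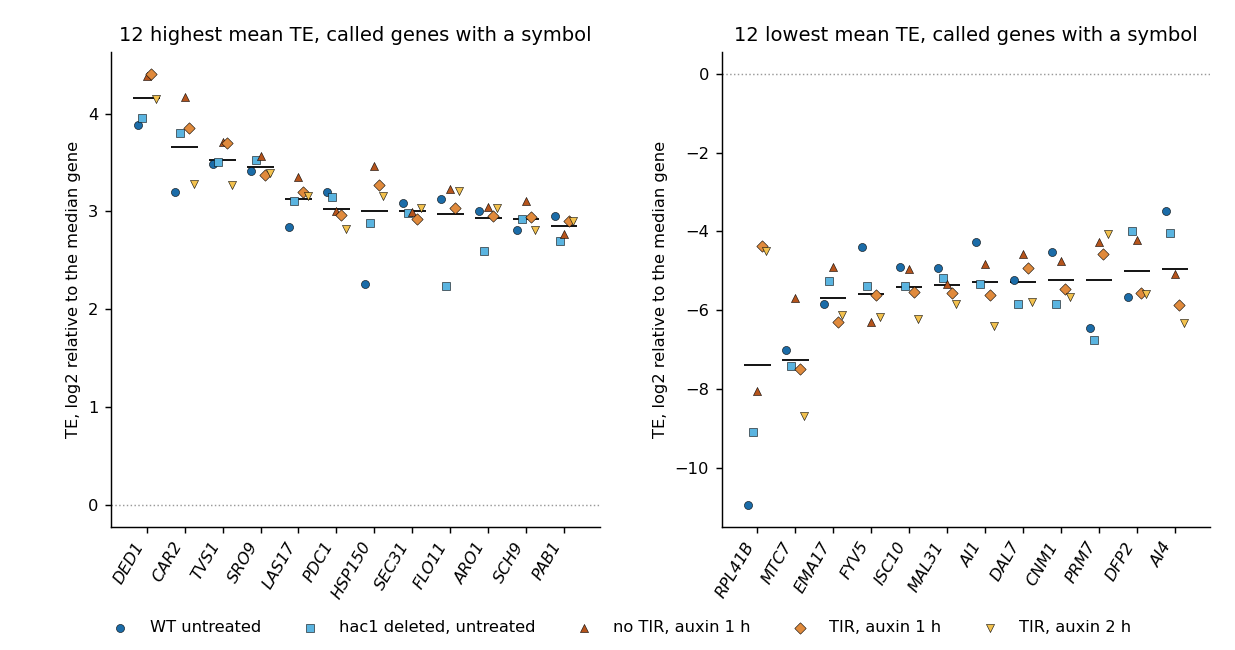
TE on the log2 scale relative to the median gene (vertical) in each of the 5 unstressed pairs (symbols), with the mean as a bar, for the 12 highest and the 12 lowest called genes that have a gene symbol and keep their side in all pairs. DED1 averages 4.16 and PAB1 2.85 on the left, and on the right MTC7 lies between -8.68 and -5.68.

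Genes of the translation machinery were mostly above the median gene. Of all genes tested, 10.9% were called above and 10.3% below, and the group counts that follow are to be read beside these shares. Without centring 164 of the 5409 genes were above and 1577 below, and group counts without centring are to be read beside those. Of 12 elongation and termination factor genes, 7 were called above (5 without centring) and none below, with a median TE of 1.53, beside -0.00 over all genes tested. HYP2, which encodes eIF5A, led them at 2.42 ± 0.29 (SD, n = 5). Its footprints were 37697.0, 45723.9, 31588.4, 31937.0 and 29555.0 RPKM, against mRNA of 13413.9, 16786.5, 8057.5, 8970.1 and 9390.1 RPKM. HYP2 footprints were thus abundant in every pair, as was its mRNA, and by mean TE it ranked 58 among all genes tested. The release factor gene SUP45 was lowest at -0.14 ± 0.12 and was not called. The copies EFT1 and EFT2, which encode elongation factor 2 and may share reads, had 2.26 and 2.24.

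Of 26 initiation factor genes, 9 were called above (3 without centring) and none below (median 0.95). After DED1 and PAB1 they were TIF4632 (2.12) and TIF4631 (1.72), which encode the eIF4G scaffold, FUN12 (1.81), NIP1 (1.81), GCD11 (1.8), SUI2 (1.57) and RPG1 (1.54). The eIF2B subunit gene GCD6 was lowest at -0.23 ± 0.12. Of 21 aminoacyl-tRNA synthetase genes, 9 were called above (4 without centring) and none below, and all 21 had a positive TE (median 1.03). They spanned DPS1, for aspartate, at 2.31 ± 0.11 to WRS1, for tryptophan, at 0.13 ± 0.12, which turns to -0.61 without centring. The eIF2B subunit genes stood lower within the initiation group, with GCD2 at 0.69, GCD7 at 0.67, GCD1 at 0.35 and GCN3 at -0.21, none called.

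Of 137 cytosolic ribosomal protein genes, 24 were called above and 2 below (median 0.64, or -0.10 without centring), and 115 had a positive TE. They supplied 36.5% ± 1.19 of all footprint RPKM and 38.6% ± 2.37 of all mRNA RPKM (SD, n = 5), so their shares of the 2 molecules were close. RPL6B was highest at 2.42 ± 0.10, and RPP0, of the ribosome stalk, had 2.35. RPS31 and RPS12, the 2 most abundant mRNAs of the tables, lay on the low side at -0.80 ± 0.19 and -0.87 ± 0.28. RPS31 averaged 23460 RPKM of footprints against 68040 RPKM of mRNA, and RPL10 (0.38) and RPL28 (0.38) were nearer the median gene, at -0.36 and -0.37 without centring. Many ribosomal protein genes are near-identical pairs, and the sources used here do not say how reads common to both copies were counted.

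The 2 ribosomal protein genes called below were RPL41A and RPL41B, a near-identical pair with very short reading frames. RPL41B footprints were listed at 0 in all 5 libraries, while its mRNA was 3117.8, 867.8, 463.5, 35 and 37.0 RPKM. RPL41A was also listed at 0 for footprints, with mRNA of 0.0 to 1658.1 RPKM. With a reading frame of 78 nt and a near-identical copy, these values are uncertain. Of 46 ribosome biogenesis genes, 5 were called above, no more than the 10.9% of all genes, and none below (median 0.41, or -0.33 without centring), led by the fibrillarin gene NOP1 at 1.90 ± 0.17. Mitochondrial ribosomal protein genes stood near the median gene, with 2 of 70 called above, none below and a median of 0.03. These were MRPL4 (1.69) and IMG1 (1.22), and without centring none was above and 7 were below.

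**Figure D3:**
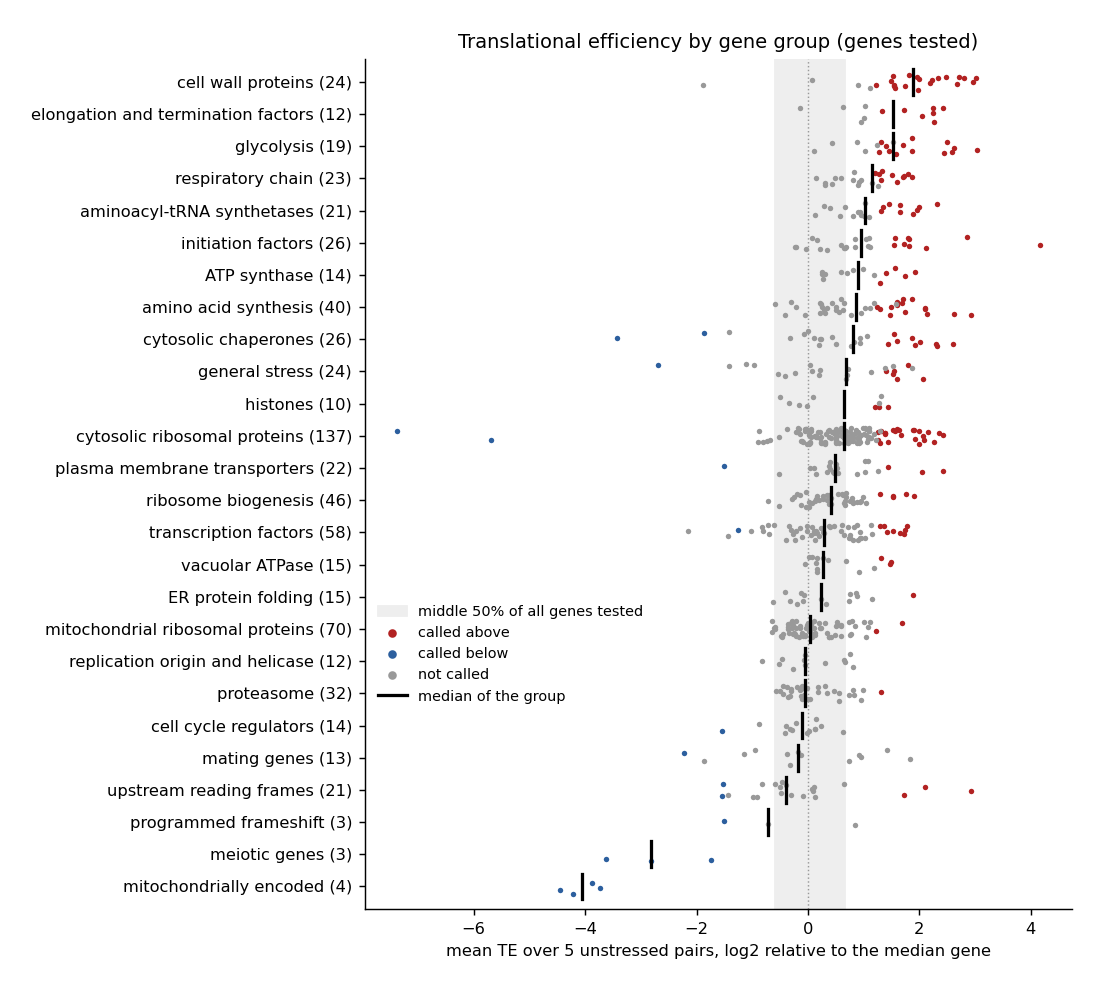
Mean TE over 5 unstressed pairs (horizontal, log2 relative to the median gene) of the tested members of 26 gene groups, one group per row with its number of genes, ordered by median (black bar). Red members are called above, blue below and grey not called, and the grey band holds the middle 50% of all genes; cell wall proteins (median 1.89), elongation factors (1.53) and glycolysis (1.52) lie highest.

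Enzymes of glycolysis and fermentation had high TE on messages that were already abundant. Of 19 genes, 13 were called above and none below (median 1.52), and they held 9.53% ± 1.5 of footprint RPKM against 6.18% ± 0.92 of mRNA RPKM (SD, n = 5). Without centring 5 were called above, and with footprint and mRNA libraries unpaired 8 were. PDC1, the main pyruvate decarboxylase, had footprints of 50151.4, 42711.2, 37493.2, 40040.8 and 36135.4 RPKM. Its mRNA was 8734.6, 7673.3, 8226.2, 9032.6 and 8546.6 RPKM. TE averaged 3.03 ± 0.15, or 8.15 times the median gene (limma adjusted p = 7.06e-07). PDC5 (2.63), a paralog of PDC1 with which it may share reads, the phosphofructokinase genes PFK2 (2.58) and PFK1 (2.49) and the pyruvate kinase gene CDC19 (2.45) came next. Not every step was high, since FBA1 for aldolase had 0.88 ± 0.17, TPI1 0.43 and GPM1, for phosphoglycerate mutase, 0.11 ± 0.12, or -0.63 without centring. GPM1 footprints averaged 28940 RPKM against 44910 RPKM of mRNA, while TDH3, an isoform of glyceraldehyde-3-phosphate dehydrogenase, averaged 76410 against 39160 RPKM.

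Of 23 respiratory chain genes, 10 were called above and none below, and all 23 had a positive TE (median 1.15), with SDH4 highest at 1.86 ± 0.31 and QCR6 lowest at 0.15 ± 0.29 (-0.60 without centring). No respiratory chain gene was called without centring or with centring on the mRNA-weighted mean, and 4 were called when footprint and mRNA libraries were not paired. Of 14 ATP synthase genes, 5 were called above (1 without centring) and none below (median 0.89). ATP1, for the alpha subunit, had 1.92 ± 0.14 and ATP17 had 0.25 ± 0.29, or -0.50 without centring. Of 40 amino acid synthesis genes tested, 15 were called above (5 without centring, 5 with libraries unpaired) and none below (1 without centring), with a median of 0.86. ARO1, the methionine synthase gene MET6 (2.62) and the branched-chain genes ILV6 (2.14) and ILV5 (2.10) led them, and LYS12 was lowest at -0.59 ± 0.22.

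Cell wall protein genes had the highest median of the 26 groups, 1.89, with 20 of 24 called above and none below. They held 2.89% ± 0.28 of footprint RPKM against 1.2% ± 0.14 of mRNA RPKM (SD, n = 5). Without centring 11 of them were called above and 1 below, where 164 of all 5409 genes were above. With footprint and mRNA libraries unpaired 12 of them were above. HSP150, an O-mannosylated protein of the wall, had footprints of 3522.9, 9096.4, 12728.9, 10971.7 and 11385.7 RPKM and mRNA of 1174.0, 1967.2, 2047.5, 1989.8 and 2124.2 RPKM. Its TE averaged 3.01 ± 0.47 and was lowest in WT at 2.26. SCW4 (2.80), PIR1 (2.72), ECM33 (2.68), SED1 (2.48) and the glucanosyltransferase gene GAS1 (1.96) were called above as well. CCW12, among the 10 most abundant mRNAs, had 1.75 ± 0.33. TIR2, an anaerobically expressed wall mannoprotein, was lowest at -1.88 ± 1.04 with 24.5 RPKM of mRNA and was not called.

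At the plasma membrane the proton pump gene PMA1 had the highest TE of the transporter group. Its footprints were 10873.0, 10144.2, 9860.0, 10205.2 and 9962.7 RPKM and its mRNA 3156.5, 3030.3, 3389.2, 3300.9 and 3091.4 RPKM, so that TE was 2.42 ± 0.04 (SD, n = 5). Of 22 transporter genes tested, 3 were called above (2 without centring) and 1 below (2 without centring), beside 10.9% and 10.3% of all genes. The median was 0.49, or -0.26 without centring. The gene called below was ITR1, a myo-inositol transporter, at -1.5 ± 0.20 (limma adjusted p = 9.45e-04). Its footprints were 146.0 to 190.3 RPKM, against 708.7 to 855.4 RPKM of mRNA.

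Of 26 cytosolic chaperone genes, 9 were called above and 2 below (median 0.81), or 5 and 3 without centring. SSA2, a constitutive Hsp70, had 2.60 ± 0.11, and the ribosome-associated Hsp70 genes SSB1 (2.02) and SSB2 (1.87) were also called above. The stress-induced Hsp70 genes SSA3 (-3.42 ± 0.38) and SSA4 (-1.87) were the 2 called below. Both passed the 10 RPKM minimum through their mRNA, and with a minimum of 50 RPKM no chaperone gene was called below. SSA3 footprints were 1.8, 3.6, 3.9, 2.4 and 2.2 RPKM, against 53.0, 109.1, 61.9, 56.7 and 56.7 RPKM of mRNA. Reads common to these close paralogs may be split between them. The 8 tested subunit genes of the chaperonin CCT lay between -0.33 (CCT5) and 0.51 (TCP1), and none was called. Of 15 ER folding genes, PDI1 was the 1 called above, at 1.88 ± 0.13, beside 10.9% of all genes. The group median was 0.24, with KAR2 at 0.73 and CNE1, for calnexin, lowest at -0.63 ± 0.19. Without centring no ER folding gene was above and 2 were below (median -0.50).

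Of 32 proteasome genes, 1 was called above, PUP1 at 1.32 ± 0.10, and the median was -0.05. Without centring none of them was above and 4 were below (median -0.79). Of 12 genes of the replication origin complex and the MCM helicase, none was called, or 3 below without centring. MCM3 was highest at 0.80 ± 0.12 and ORC3 lowest at -0.83 ± 0.16. Of 14 cell cycle regulators, the mitotic cyclin gene CLB1 was called below at -1.55 ± 0.16 and none above (median -0.11), with 2 below without centring. Of 15 vacuolar ATPase genes, 3 were called above (VMA2, VMA10 and VMA4) and none below (median 0.27, or -0.47 without centring, which left none above). The counts of these small groups stand beside 10.9% above and 10.3% below over all genes. Of 10 histone genes, 3 were called above and none below (median 0.65, or -0.10 without centring, which left none above and 1 below), spanning HHO1, the linker histone, at 1.43 ± 0.20 to HHT1 at -0.51 ± 0.22.

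Of 58 transcription factor genes tested, 8 were called above, near the 10.9% of all genes, and 1 below, beside 10.3% of all genes (median 0.28). Without centring the split turned to none above and 7 below (median -0.46). The stress regulators MSN4 (1.77 ± 0.36) and MSN2 (1.75) led them, with SOK2 (1.72), ROX1 (1.66) and RAP1 (1.53). OPI1, the repressor of phospholipid genes, was the 1 called below at -1.26 (limma adjusted p = 0.0411). No transcription factor gene was called below when the WT pair or either TIR pair was left out. Of 13 mating genes tested, STE6 was called below at -2.23, and it stood apart in WT, at -0.10. Its footprints were 86.6 RPKM in WT and 0.8 to 2.5 RPKM in the other pairs. Of the 15 listed mating genes, 14 had at least 10 RPKM of mRNA in WT. In the hac1 deleted library 8 did, and in each auxin library 5. The group thus passed the minimum in part through WT, so no more than its values can be given. Of 24 general stress genes, 6 were called above and 1 below (median 0.69), beside 10.9% and 10.3% of all genes. Without centring 1 of them was above and 3 below (median -0.05), and with libraries unpaired 1 was called on each side. GPD1, the glycerol-3-phosphate dehydrogenase of osmotic adaptation, had 2.06 ± 0.16 and ALD3, an aldehyde dehydrogenase, -2.69 ± 0.88. ALD3 footprints were 0.5, 2.0, 3.9, 7.4 and 7.5 RPKM, against 36.7, 42.2, 49.4, 55.1 and 50.8 RPKM of mRNA, so it passed the minimum through its mRNA.

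At the low end lay genes with mRNA but few or no footprints. Among the 557 genes called below, 14 were listed at 0 for footprints in all 5 libraries and 74 averaged under 1 RPKM of footprints. Such genes passed the 10 RPKM minimum through their mRNA and could only fall below the median gene. The identifiers without a match in RefSeq R64 had a median TE of -1.66, and 50.4% of the 125 tested were called below, against 9.35% of the 5284 matched ones. The named genes called below numbered 407.

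MTC7 combined abundant mRNA with few footprints. Its footprints were 19.8, 20.2, 83.9, 17.4 and 6.7 RPKM, against mRNA of 4243.6, 5703.5, 7658.5, 5770.3 and 5260.0 RPKM. TE was -7.25 ± 1.08 (SD, n = 5; limma adjusted p = 3.65e-06). MTC7 lies next to HYP2 on the same strand, and HYP2 mRNA averaged 11320 RPKM. Whether MTC7 reads belong to transcripts of HYP2 was not tested.

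Other named genes with the lowest TE differ in their known roles. ISC10, a sporulation gene, had footprints of 1.5, 1.1, 1.4, 0.7 and 0.2 RPKM against mRNA of 121.2, 142.1, 131.0, 141.4 and 144.4 RPKM, and a TE of -5.40 ± 0.53. MAL31, a maltose permease, had 0.1 to 0.7 RPKM of footprints against 78.3 to 108.1 RPKM of mRNA (TE -5.36 ± 0.35). DAL7, a malate synthase of allantoin use, had 0.8 to 1.9 against 122.0 to 167.1 RPKM (TE -5.27 ± 0.56). In each of the 3 genes the mRNA was steady over the pairs and the footprints were under 2 RPKM. CNM1, EMA17 and DFP2 had TE of -5.24, -5.69 and -5.00, and PRM7, a pheromone-regulated membrane protein gene, had 0.0 to 5.8 RPKM of footprints against 138.7 to 425.6 RPKM of mRNA. FYV5 (-5.58) overlaps ADF1, so that its mRNA reads cannot be told apart from those of its neighbour if counting ignored strand. EMA17, CNM1, DFP2, FYV5 and ISC10 also lie next to a gene with more mRNA on the same strand. These are EMC5 (832.8 RPKM), YBR062C (340.1), KTD1 (214.7), KRR1 (944.2) and SLO1 (166.3). The neighbours of MAL31, DAL7 and PRM7 had less mRNA than the gene itself. Whether reads of neighbours enter these values was not tested.

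Of the 13 listed meiotic genes, 3 passed the minimum, all through their mRNA, so no more than their values can be given. RED1, of the meiotic chromosome axis, had 0.2 to 1.1 RPKM of footprints against 25 to 37.7 RPKM of mRNA. MSH5 had a TE of -2.82 and ZIP1, of the synaptonemal complex, -1.74 ± 0.49. Of 8 mitochondrially encoded genes, 4 passed, again through mRNA. COX1 footprints were 0.1 to 1.0 RPKM against 18.4 to 95.2 RPKM of mRNA, COX2 and COX3 had at most 0.3 and 1.0 RPKM of footprints, and ATP8 at most 6.0 RPKM. The reading frames AI1 and AI4 in the introns of COX1 had TE of -5.29 and -4.96. Mitochondrial ribosomes translate these messages, and the sources used here do not say how far the libraries recover their footprints.

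Messages known for upstream reading frames lay on both sides of the median gene. Of 21 genes in this group, 3 were called above and 2 below (median -0.39, beside -0.00 over all genes), and 13 had a negative TE. Both counts are near the shares of all genes, 10.9% above and 10.3% below. SCH9 (2.92), the leucine synthesis gene LEU4 (2.11) and TIF4631 (1.72) were called above, and PPR1 (-1.55 ± 0.18), an activator of uracil synthesis, and PET111 (-1.53), a mitochondrial translation activator, below. YAP1, the oxidative stress regulator, had -0.30 ± 0.12 and CLN3, the G1 cyclin, 0.12 ± 0.21, or -0.62 without centring. The group split also moved without centring, to 2 of 21 above and 8 below (median -1.14), beside 164 and 1577 of all 5409 genes.

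GCN4, the activator of amino acid synthesis, had steady mRNA but very different footprints between pairs. Its footprints were 745.3, 80.9, 2026.3, 1681.4 and 1801.1 RPKM in WT, hac1 deleted, no TIR with auxin, TIR at 1 h and TIR at 2 h. Its mRNA was 3807.2, 3888.9, 3400.0, 3779.9 and 3668.9 RPKM. TE was therefore -1.68 in WT and -4.90 in the hac1 deleted pair, and 0.07, -0.36 and -0.28 in the auxin pairs. The auxin and deletion pairs do not overlap, which holds for 45.1% of all genes tested, and experiment, strain and auxin cannot be told apart here. With an SD of 2.05 over the 5 pairs its mean of -1.43 was not called (limma adjusted p = 0.948).

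CPA1, which codes for a subunit of carbamoyl phosphate synthetase, carries in its leader a short reading frame that is annotated as a gene of its own, YOR302W. CPA1 footprints were 508.9, 175.2, 222.5, 214.3 and 217.7 RPKM, against mRNA of 871.3, 423.7, 1010.7, 1015.1 and 1016.2 RPKM. TE was -0.99 ± 0.61, between -0.10 in WT and -1.47 in TIR cells at 2 h, and was not called. YOR302W, looked at after its values were seen, averaged 3184 RPKM of footprints and 1112 RPKM of mRNA. Its TE was positive in all 5 pairs (mean 2.30), although its reading frame is only 78 nt long and its per-length values are correspondingly uncertain.

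HAC1, the transcription factor of the unfolded protein response, had a low TE in each of the 4 pairs in which its gene was present. Footprints were 178.5 RPKM in WT and 380.0, 456.6 and 567.5 RPKM in the auxin pairs, against mRNA of 2372.2 RPKM in WT and 6192.5, 5829.1 and 6222.4 RPKM in the auxin pairs. TE was -3.05, -3.20, -2.86 and -2.71 in these 4 pairs and 1.03 in the hac1 deleted pair, where both values are residual. Over all 5 pairs the mean of -2.16 ± 1.79 was not called (limma adjusted p = 0.168). Without the hac1 deleted pair it was -2.96 and was called (adjusted p = 6.66e-06). OAZ1, the ornithine decarboxylase antizyme read through a programmed frameshift, was called below at -1.5 ± 0.36 (limma adjusted p = 0.0126). The call was lost without the TIR pair at 2 h (-1.45, adjusted p = 0.0588) and in the auxin pairs alone (-1.33, adjusted p = 0.0928). The other 2 frameshift genes were not called, with EST3 at -0.72 ± 0.24 and ABP140 at 0.84 ± 0.13.

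**Figure D4:**
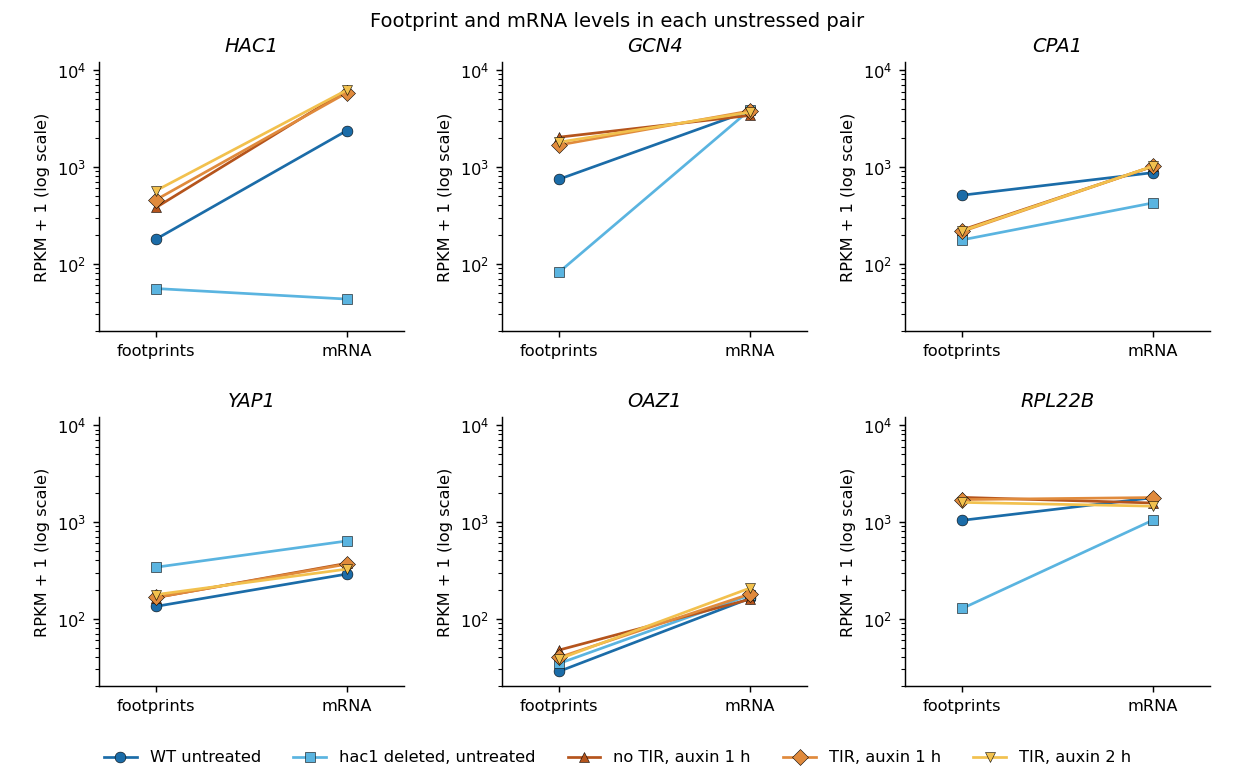
Footprint RPKM + 1 (left in each panel) and mRNA RPKM + 1 (right), on a log scale, of 6 genes, with each unstressed pair as a line. HAC1 lines run steeply upward in 4 pairs and lie at 54.4 and 42.1 RPKM in the hac1 deleted pair; GCN4 mRNA is 3400.0 to 3888.9 RPKM in all pairs while its footprints run between 80.9 and 2026.3 RPKM.

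TE was also set against the mRNA level. Genes were divided into 10 bins by the mRNA level of 1 experiment, and the median TE was taken from the other, so that the medians do not share mRNA values with the bins. The shares called come from the test of all 5 pairs, which does use that mRNA. In the bin of the highest mRNA the median TE was 0.37 in the deletion pairs and 0.53 in the auxin pairs, and 1.85% and 1.48% of genes were called below in the 5-pair test. In the bin of the lowest mRNA the medians were -0.01 and -0.05, and 16.6% and 15.7% of genes were called below. The 10 RPKM minimum was set on the mean of both molecules. In this bin a gene with less mRNA than that entered only through its footprints, and a gene with few footprints only through its mRNA. The median and the shares of the lowest bin are therefore shaped by the minimum. The share called above was 21.3% and 20.7% in the highest bin and 10.2% in the lowest bin of both. Within a pair, log2 footprints had an SD of 2.54 to 2.59 over genes and log2 mRNA one of 1.95 to 2.07, so footprints covered the wider range. By coding length, the 179 genes under 300 nt had a median TE of 0.18, with 12.8% called above and 18.4% called below, beside 10.9% and 10.3% of all genes. The 182 genes of 4000 nt or more had a median of 0.27, with 15.4% called above and 7.69% below. The 100 most abundant genes of each library held 46.7% ± 1.41 of footprint RPKM and 43.1% ± 2.13 of mRNA RPKM (SD, n = 5).

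The pairs ranked genes alike, and more so within an experiment than across. Across the 5409 genes, Pearson's r between the TE of 2 pairs was 0.948 to 0.975 within an experiment (4 comparisons) and 0.913 to 0.932 between experiments (6 comparisons). The points are genes of the same libraries and share their annotation and length, so no p is attached. The experiments did not overlap in TE for 2438 genes (45.1%), and for 128 of them the means differed by over 1. The widest ranges over the 5 pairs, among genes averaging at least 50 RPKM in both molecules, were those of GCN4, HAC1, the a-factor genes MFA1 and MFA2, and 6 reading frames without a gene symbol. MFA1 and MFA2 reached that average through the WT pair alone, and HAC1 lay between -3.20 and -2.71 in the 4 pairs other than the hac1 deleted one. YDR278C had 130368.3 and 59888.9 RPKM of footprints in the deletion pairs and 17962.0, 9955.7 and 16554.0 RPKM in the auxin pairs, on mRNA of 8696.7 to 13347.6 RPKM. YGL088W, which overlaps the small nucleolar RNA gene SNR10, and YOL013W-A likewise had more footprints in the deletion pairs. YMR013W-A had 456.1 and 131.6 RPKM of footprints in the deletion pairs and 24.8, 0.0 and 0.0 RPKM in the auxin pairs, on mRNA of 1589.3 to 2765.6 RPKM.

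The genes called above were also followed into the stressed libraries. Of the genes called above in unstressed cells, 583 of 591 had a positive TE in all 12 stressed pairs and 348 (58.9%) stayed over 1 in all of them. These genes were selected for a high TE, and the same shares over all genes were not counted. The counts therefore only describe the genes called above. The genes called below are not counted here, since they include those with footprints near 0. DED1 had 4.16 to 4.42 in the unstressed pairs of the auxin experiment and 3.61 to 4.07 in its DTT pairs (difference 0.39 ± 0.11, SE; limma adjusted p = 0.0343). In the deletion experiment it had 3.88 to 3.97 in the unstressed pairs and 3.77 to 4.38 in the stressed pairs (difference -0.05 ± 0.16, adjusted p = 0.986). OAZ1 had -1.67 to -0.92 in the unstressed auxin pairs against -1.59 to -0.50 in the DTT pairs of that experiment, a difference that did not pass the test.

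In the auxin experiment TE differed between the 3 unstressed and the 8 DTT pairs for 826 of 5497 genes (15.0%). It was higher in unstressed cells for 522 genes (9.5%) and lower for 304 (5.53%), and 126 of the called genes differed by over 1. The minimum was a mean of 10 RPKM over all libraries of the auxin experiment, so genes could pass through their DTT libraries alone. Auxin was present in all 3 unstressed pairs and in 4 of the 8 DTT pairs, and the unstressed side rests on few pairs. Leaving out 1 of them gave 392 genes without the no TIR pair, 371 without the TIR pair at 1 h and 316 without the TIR pair at 2 h. In the deletion experiment no gene was called in either direction (0.0% of 5437, limma; 2 unstressed and 4 stressed pairs), and 311 reached an unadjusted p under 0.05. Leaving out the hac1 deleted untreated pair gave 2 called genes there.

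RPL22B, 1 of the 2 genes for ribosomal protein L22, showed one of the largest differences. Its footprints were 1590 to 1791 RPKM in the unstressed auxin pairs, against 57.5, 92.9 and 165.9 RPKM (lowest, median, highest) in the DTT pairs. Its mRNA was 1454 to 1784 RPKM, against 555.0, 598.8 and 640.9 RPKM. TE was 2.90 ± 0.21 (SE) higher in unstressed cells (limma adjusted p = 1.57e-05). In the deletion experiment the difference was 1.75 ± 1.06 (adjusted p = 0.895), and unstressed TE was -0.10 in WT and -2.36 in the hac1 deleted pair, and its mean over the 5 unstressed pairs was 0.03 ± 1.41 (SD). GCN4 was also better occupied without stress in the auxin experiment, with 1681 to 2026 RPKM of footprints in unstressed pairs against 414.7, 545.2 and 760.9 RPKM in DTT pairs. Its TE difference was 1.3 ± 0.14 (SE; adjusted p = 7.82e-05). In the deletion experiment the GCN4 difference was 0.02 ± 0.24 (adjusted p = 0.994). Whether the experiments differ was not tested.

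HAC1 went the other way. In the auxin experiment its footprints were 380.0 to 567.5 RPKM in unstressed pairs against 4381, 5050 and 5846 RPKM in DTT pairs. Its mRNA was 5829 to 6222 RPKM against 22570, 25760 and 29190 RPKM. TE was 1.25 ± 0.12 (SE) lower on the log2 scale in unstressed cells (difference -1.25, limma adjusted p = 5.94e-05). DFP3 and GTT2, a glutathione transferase gene, were lower in unstressed cells by larger amounts, with differences of -2.06 ± 0.15 and -2.51 ± 0.26. In the deletion experiment the differences were -1.32 ± 0.42 for DFP3 and -0.42 ± 0.53 for GTT2, and neither passed the test. GTT2 footprints were 2.0 to 2.6 RPKM in the unstressed auxin pairs, against 26.5, 52.7 and 91.2 RPKM in the DTT pairs of that experiment. Its mRNA was 80.9 to 98.5 RPKM in the same unstressed pairs, against 144.1, 216.5 and 278.7 RPKM in the same DTT pairs. The other genes with the largest differences had low values. YGR259C (3.97), PAU6 (3.30), HHY1 (3.02) and THI72 (2.64) had at most 7.4 RPKM of mRNA and 1.3 RPKM of footprints in the unstressed auxin pairs. HHY1 mRNA, for example, was 2.6 to 4.2 RPKM there, against 47.1 to 121.9 RPKM in DTT pairs. PAU6 mRNA was 2.1 to 2.6 RPKM there against 17.75 to 44.9 RPKM in DTT pairs, and its footprints were at most 0.5 RPKM. YGR259C, PAU6, HHY1 and THI72 reached the 10 RPKM minimum only through their DTT libraries, so no more than their values can be given. In the unstressed auxin pairs YMR030W-A, YNL042W-B, PBI1, YOL038C-A and YJL077W-B were similarly sparse in footprints, at 19.1 RPKM or less.

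**Figure D5:**
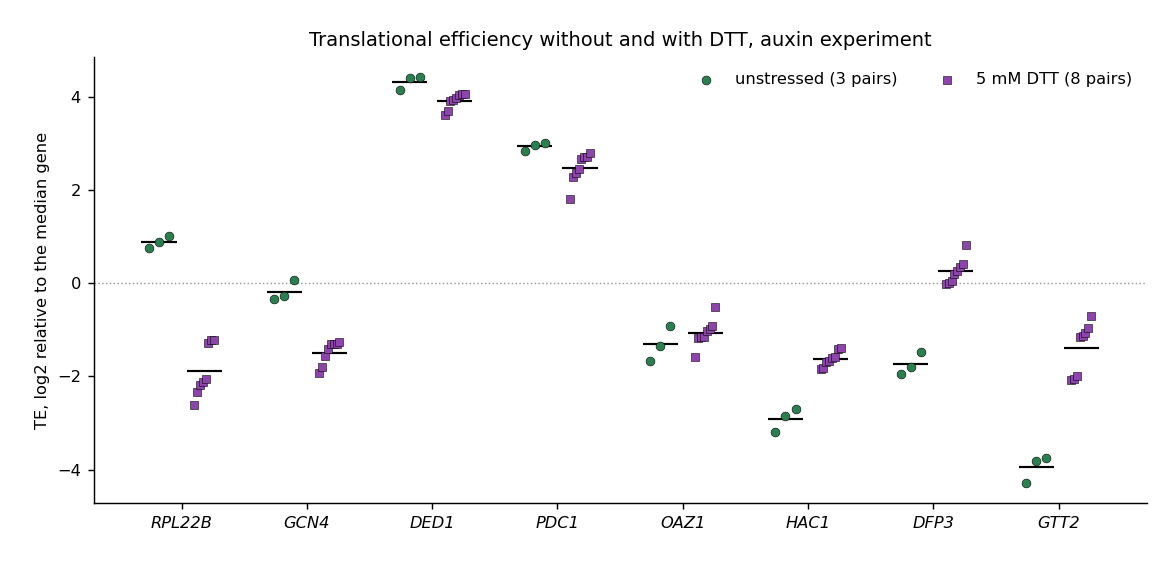
TE (log2 relative to the median gene) of 8 genes in the 3 unstressed pairs (green circles) and the 8 pairs with 5 mM DTT (purple squares) of the auxin experiment, with means as bars. RPL22B and GCN4 lie higher in unstressed pairs and HAC1, DFP3 and GTT2 lower, while the OAZ1 values of the groups overlap.

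Of the gene groups, cell wall proteins had the highest share of called members in the auxin experiment, with 11 of 24 higher and 2 lower in unstressed cells (median difference 0.40, beside 0.03 over all genes). Over all genes tested there, 9.5% were higher and 5.53% lower, the shares beside which the group counts are to be read. Amino acid synthesis had 11 of 40 higher and none lower (median 0.20), and cytosolic ribosomal proteins 24 of 137 higher and none lower (median 0.12). Of the 12 elongation and termination factor genes, 4 were higher in unstressed cells (median 0.29), and of the 21 aminoacyl-tRNA synthetase genes none was called (median 0.17). The proteasome, with 1 of 32 higher and 2 lower, lay below the 15.0% of all genes called in either direction. In the deletion experiment no member of any group was called. The 826 calls behind the auxin counts fell to 316 to 392 with 1 unstressed pair left out, and to 246 with libraries unpaired.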

How the data were processed

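mRNA and ribosome footprints were measured in parallel, and the authors deposited 1 RPKM table for each experiment. RPKM is the unit of the deletion table per the file headers. No unit is stated in the auxin table; from range and sums its deposited numbers were treated as RPKM too. CASAVA, bcl2fastq 2.17 and Bowtie2 are named, with no role, in the submitters' processing notes. Genome build, annotation, counting rule and use of strand were not given in the sources used here. For the deletion libraries a molecule label runs against the titles; titles and column names were followed, and the libraries titled footprints list 908 to 981 genes at 0, as the auxin footprint libraries do (832 to 1010), against 485 to 621 in the mRNA libraries. Depth was estimated from the steps between low values, after 60 nt were taken off each coding length. Footprint libraries held 6.45 to 26.1 M reads in genes and mRNA libraries 10.2 to 32.4 M, and 82.2% to 90.1% of values under 200 reads were whole multiples of 1 read within 0.02. No count model was fitted.

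TE was log2(footprint RPKM + 1) minus log2(mRNA RPKM + 1) within a pair, which understates the differences of genes with low values. It was centred on the pair's median over the genes whose mean RPKM reached 10. The median before centring was -0.82 to -0.67. limma 3.58.1 in R 4.3.3 tested the mean of 5 pairs against a minimum log2 difference of 1 (treat, mean-variance trend, 4 residual degrees of freedom). The pairs differ in genotype, treatment and experiment, so p-values measure the spread between these pairs, which may be technical. Unstressed and stressed pairs were compared within each table with terms for TIR and hour (7 residual degrees of freedom) or for strain (3). p-values were adjusted after Benjamini and Hochberg over every gene tested. In simulated data with known changes of 2 and -2 in 5 pairs, 90.0% and 94.0% were recovered. For changes of 1.5 and -1.5 the recovered shares were 84.0% and 78.0%.

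Footprint and mRNA libraries are paired by title. Their deviations from the molecule's mean correlated by 0.619 to 0.865 within pairs, the highest for each footprint library in all but TIR at 2 h (0.643 with its own mRNA library, 0.680 with another). Within the auxin pairs alone the own-pair values were 0.246, 0.146 and 0.139.

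Of the identifiers, 5994 matched RefSeq R64 and 685 did not. The libraries, the 26 gene lists and the genes named were chosen with earlier results of these data known. Named were the 12 called genes of highest and lowest TE with a symbol and a TE past 1 or -1 in all pairs, 8 chosen genes, the extremes of each list, the 10 most abundant mRNAs, the 10 largest ranges over the pairs and the 6 largest differences from DTT in each direction. Others are said to be chosen after their values were seen, or are further members of a list.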

Additional observations from a re-analysis of the deposited data

Results flagged for a closer look

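Among 98 genes whose TE was examined over the 5 unstressed pairs, 7 had 1 pair far from the other 4, where chance gives about 1 gene in 20, and the pairs are not replicates of 1 labelled group. In the hac1 deleted pair TE stood apart for HAC1 at 1.03 (the deleted gene, with residual reads), FLO11 at 2.24, ARO1 at 2.6, CLN3 at 0.49, RPN8 at -0.69 and YEL045C at -1.1. In the untreated WT pair STE6, the a-factor exporter, stood apart at -0.1, with 149.4 RPKM of mRNA there and 24 to 29.8 RPKM in the other pairs. Its mean of -2.23 was called over the 5 pairs and was not called without the hac1 deleted pair (-2.17) or without any single auxin pair (-2.15 to -1.99).

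RPL22B had a mean TE of -1.23 in the deletion pairs against 0.88 in the auxin pairs, with both deletion pairs below 0 and all 3 auxin pairs above it. Of all genes tested, 45.1% had no overlap in TE between the experiments. The RPL22B difference was not tested, and experiment and treatment cannot be told apart.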

How the results depend on the processing

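The counts above and below the median gene, 591 and 557, kept within 1.5 times under other pseudocounts, an mRNA-only filter, no filter, no mean-variance trend and either experiment alone. Leaving out 1 pair gave 526 to 613 above and 493 to 545 below. TE not centred, which shifts the median gene to -0.75, gave 164 above and 1577 below, and centring on the mRNA-weighted mean (-0.67) gave 187 and 1397. Without centring, cytosolic ribosomal proteins had 8 called on each side. A minimum difference of 0.5 gave 1322 and 1180, no minimum 2238 and 2241, and a filter of 50 RPKM 369 below, with fewer genes tested. Without the replicate block, that is with footprint and mRNA libraries unpaired, 373 were above. For unstressed minus DTT in the auxin experiment, 826 became 246 without the replicate block and 316 to 392 when an unstressed pair was left out. The deletion count of 0 became 1 with a pseudocount of 0.1 and was 0 to 2 with a pair left out. The cause was not tested.

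Signs turned for genes near the reference point. Not centred, TE was -0.62 for CLN3, -0.61 for WRS1, -0.63 for GPM1, -0.60 for QCR6, -0.50 for ATP17, -0.11 for CLN2, -0.36 for RPL10, -0.37 for RPL28 and -0.71 for RPL22B, and the CLN3 difference from DTT was -0.00. With the mRNA-weighted mean the same 9 were -0.55, -0.54, -0.56, -0.52, -0.42, -0.04, -0.29, -0.29 and -0.64. RPL22B was -0.04 with the 50 RPKM filter, -1.23 in deletion pairs alone and -0.21 to 0.63 with 1 pair left out. QCR6 was -0.05 in auxin pairs alone and YDR445C 0.70 in deletion pairs alone. Over all named genes and settings, 1710 values kept direction and call, 85 gained a call, 88 lost one and 26 turned sign. Depth limits the genes with footprints near 0.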
